A study of Mus musculus with 8 samples.

Results

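The 9 genes described here encode proteins that meet LRP1 (low-density lipoprotein receptor-related protein 1) during its life cycle. They are Lrpap1, which encodes the receptor-associated protein RAP, and the ligand genes Apoe, Lpl, Thbs1, Thbs2, Mdk, App, Psap and Calr. They were chosen by name as the receptor's chaperone and 8 of its ligands, with no measured value in the rule, and are 9 of the 22520 protein-coding genes in the deposited table.

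LRP1 is a large endocytic receptor of the LDL receptor family that binds many secreted and cell-surface proteins, carries them into the cell for lysosomal degradation and also relays signals. RAP binds the newly made receptor in the endoplasmic reticulum (ER), keeps ligands off it until it reaches the Golgi and is then released. In the liver, LRP1 clears lipoprotein remnants, proteases with their inhibitors and matrix proteins from the blood and the space around the sinusoids.

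The study profiled liver endothelial cells (ECs) by mRNA-seq to ask which genes respond to the loss of endothelial LRP1. Of the 8 libraries, 4 came from LRP1 eKO mice (Lrp1 f/f; Cdh5-CreER+/-) and 4 from littermate controls called WT (Lrp1 f/f; Cdh5-CreER-/-), all C57BL/6 and all at postnatal day 14. The floxed allele was shared by both groups, and CreER, a tamoxifen-activated recombinase, was driven by the promoter of the endothelial cadherin gene Cdh5. Cells were taken with beads that carry an antibody to the endothelial protein PECAM-1, and the labels call them liver microvesicular cells. Since CreER was absent from WT mice, its presence cannot be told apart from the deletion. The labels do not say whether libraries came from separate animals, and all p-values measure only the spread between these libraries, which may be technical.

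Values are a quantile-normalized signal with no stated unit, and the libraries had nearly equal totals of 484445 to 485947. The targeted gene Lrp1, at chr10:127538161-127621148 (mm10), was at 61.6, 59.0, 56.2 and 85.1 in WT 1 to 4 and at 6.01, 2.16, 5.15 and 4.32 in LRP1 eKO 1 to 4. It was lower in every LRP1 eKO library (log2 fold change -3.66, SE 0.23, limma adjusted p = 2.8e-06), as the labels state. WT 4 and LRP1 eKO 2 stood apart from the other libraries of their group: WT 4 was farthest from the rest of its group in 61.7% of genes tested and LRP1 eKO 2 in 37.2%.

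Endothelial markers were low in all libraries. Pecam1 averaged 2.09 in WT and 3.02 in LRP1 eKO, Cdh5 averaged 1.86 and 3.70, and the 10 pan-endothelial genes summed to 37.9 to 39.7 in WT and 38.9 to 55.1 in LRP1 eKO, with Esam the highest. Mesothelial genes led by Msln summed to 2209 to 2662 in WT and 2880 to 3196 in LRP1 eKO. Stellate cell and fibroblast genes led by Col1a2 summed to 1983 to 2304 and 1731 to 2195, and smooth muscle genes led by Acta2 to 1505 to 1567 and 1850 to 1936. Hepatocyte genes led by Trf, the transferrin gene, were lower in LRP1 eKO, at 617 to 902 against 1501 to 1551. Most of this sum was Trf, which averaged 733 in LRP1 eKO and 1387 in WT. Alb, the albumin gene, was at only 5.70 to 6.83 in LRP1 eKO and 15.7 to 24.7 in WT. The preparations are therefore called liver libraries here, and in such bulk samples fewer cells of a type and less RNA per cell cannot be told apart.

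**Figure D1:**
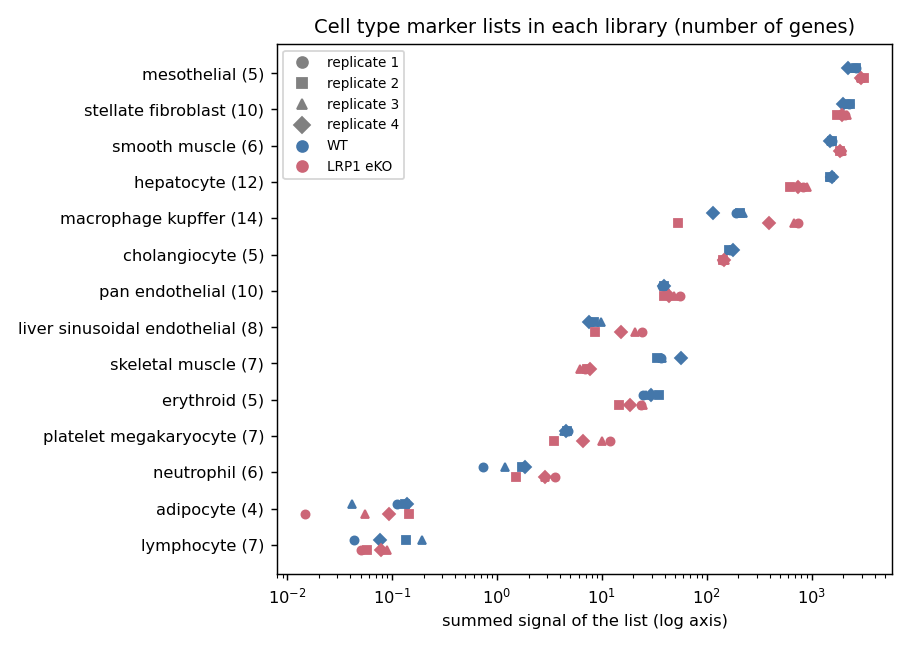
Summed signal (log axis) of 14 cell type marker lists in each of the 8 libraries, with the number of genes in brackets, WT in blue, LRP1 eKO in red and the replicate number by symbol. The mesothelial, stellate cell and fibroblast, and smooth muscle sums lie between 1505 and 3196 in every library, while the pan-endothelial sums lie between 37.9 and 55.1.

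All 9 genes passed the filter on low signal. Psap and Calr were higher and Lpl, Thbs1 and Mdk lower in LRP1 eKO at a limma adjusted p under 0.05, while Lrpap1, Apoe, Thbs2 and App did not pass. These 2 higher and 3 lower genes stand against a background in which 19.0% of the 11391 genes tested were called higher and 22.2% lower, 41.2% in either direction. Only Mdk among the 9 also passed the 2-fold limit of the study's methods, which 1.66% of all genes tested passed, 0.869% upwards and 0.790% downwards. For Calr, Lpl and Mdk the 4 LRP1 eKO libraries did not overlap the 4 WT libraries, with 1 gene above and 2 below, as was true of 42.6% of all genes tested, 20.0% above and 22.5% below. The median log2 fold change of the 9 genes was 0.07, against -0.01 over all genes tested.

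**Figure D2:**
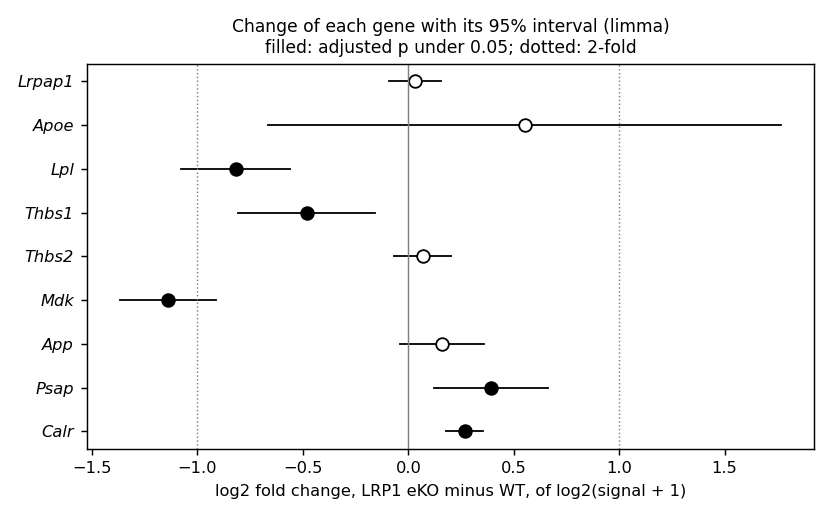
Log2 fold change of each gene (LRP1 eKO minus WT, on the log2(signal + 1) scale) with its 95% interval from limma, filled where the adjusted p was under 0.05, with dotted lines at 2-fold. Mdk lies at -1.14 and Lpl at -0.82, and the interval of Apoe runs from -0.66 to 1.77.

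By level, the genes fell into a high and a low set. The lowest signal above 0 of a gene became smaller with its exonic length, from a median of 0.0459 at a median of 791 bases to 0.00610 at 6066 bases, so that the signal was read as a level per length. On that scale the WT means were 682 for Calr, 646 for Psap, 625 for Thbs1, 426 for App, 308 for Apoe, 92.6 for Lpl, 78.3 for Lrpap1, 56.1 for Mdk and 7.03 for Thbs2. The ranges of neighbours from Calr to App overlapped, and from App downwards each gene exceeded the next in every library. In LRP1 eKO the order was Psap, Calr, Apoe, App and Thbs1, whose neighbours overlapped, followed by Lrpap1, Lpl, Mdk and Thbs2, which did not.

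**Figure D3:**
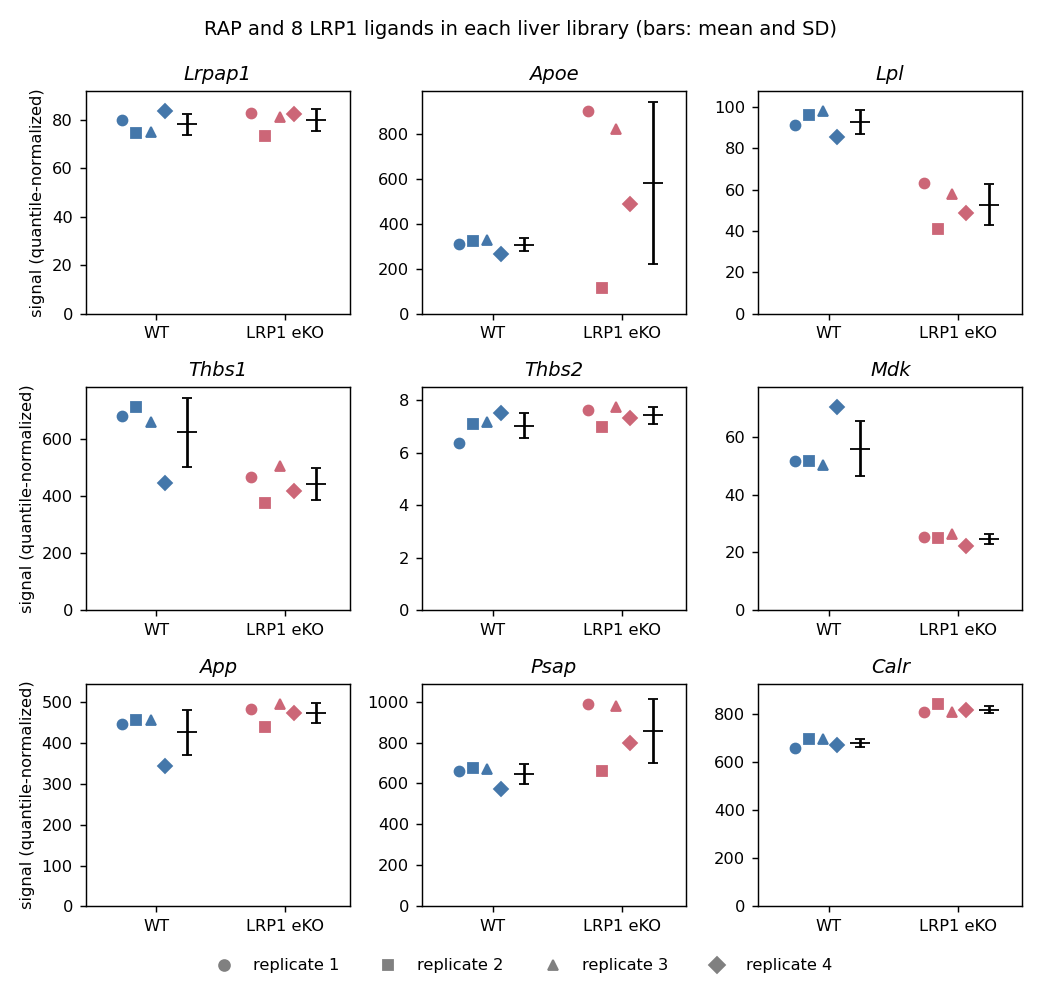
Signal of the 9 genes in each library (WT in blue, LRP1 eKO in red, symbols for replicate numbers), with the group mean and SD as bars and every axis starting at 0. The groups are separate for Lpl, Mdk and Calr, and the LRP1 eKO libraries of Apoe spread from 113 to 903.

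The promoter of Calr is shown because Calr was higher in every LRP1 eKO library together with other ER chaperone genes, and because such genes often share a promoter element, the ER stress response element (ERSE). The motif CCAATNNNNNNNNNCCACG was searched on both strands in the 250 bases before each RefSeq start site (GRCm38.p6), a search chosen after the values were seen. It was present in 37 of 32851 RefSeq promoters (0.113%). Of the 9 promoter entries found for Lrpap1, Apoe, Calr, Psap, App and Thbs2, 1 held it, that of Calr. The palindrome GTCACGTGAC, known as the CLEAR element of lysosomal gene promoters, was present in 79 promoters (0.240%), and again Calr held the 1 match among these entries. The Calr window lies at chr8:84846932-84847181 on the minus strand, and capitals mark first GTCACGTGAC and then the ERSE, which runs on the opposite strand to the gene.
Calr promoter: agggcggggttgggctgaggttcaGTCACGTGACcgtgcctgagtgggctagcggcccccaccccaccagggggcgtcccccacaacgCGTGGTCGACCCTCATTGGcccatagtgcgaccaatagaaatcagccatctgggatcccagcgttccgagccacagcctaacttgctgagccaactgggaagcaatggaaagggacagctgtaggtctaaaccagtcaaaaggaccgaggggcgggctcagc
In the calreticulin partner list described further on, 3 of 10 promoter entries held the same element, those of Hspa5, Canx and Hsp90b1, with 2 copies in Hsp90b1. No match was found for P4hb or Pdia3, which were also higher in LRP1 eKO. The ERSE matches are given in the direction of the motif, with capitals for its fixed letters.
Calr, chr8:84847075-84847093: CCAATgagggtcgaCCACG
Hspa5, chr2:34772025-34772043: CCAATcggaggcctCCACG
Hsp90b1, chr10:86705638-86705656: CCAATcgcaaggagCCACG
Hsp90b1, chr10:86705533-86705551: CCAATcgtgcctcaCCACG
Canx, chr11:50325800-50325818: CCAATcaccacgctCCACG
A match is a run of letters in this window and not a measured binding site.

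Lrpap1, at chr5:35091501-35105766, encodes the chaperone of the receptor. Its signal was 80.0, 74.5, 75.2 and 83.7 in WT 1 to 4 and 82.9, 73.4, 81.4 and 82.5 in LRP1 eKO 1 to 4. The groups overlapped, with means of 78.3 ± 4.31 and 80.0 ± 4.49 (SD, n = 4 each). The log2 fold change was 0.03 with a 95% interval of -0.09 to 0.16 (limma adjusted p = 0.68), while the receptor transcript itself fell by 3.66 on the log2 scale. A p that misses the threshold does not show that the groups were alike.

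The lipoprotein ligands are apolipoprotein E, which carries remnant particles to LRP1, and lipoprotein lipase, which hydrolyses their triglycerides and bridges them to the receptor. Lpl, at chr8:68880491-68907448, was at 91.1, 96.2, 97.9 and 85.4 in WT 1 to 4. In LRP1 eKO 1 to 4 it was at 63.2, 41.0, 57.8 and 48.7. Every LRP1 eKO library was below every WT library, with means of 52.7 ± 9.84 against 92.6 ± 5.63 (SD, n = 4 each). Lpl fell by 0.82 on the log2 scale (SE 0.12, limma adjusted p = 5.3e-04). An exact two-sided permutation test of Lpl gave p = 0.029, the smallest value that 4 against 4 libraries allow. It passed the limma test in all 19 other fits, with a log2 fold change of -0.94 to -0.71. The hepatocyte and skeletal muscle lists were lower in the same libraries, with 7 of 7 and 5 of 5 tested members lower. Over all genes tested, 22.2% were lower. The cholangiocyte and erythroid sums were lower as well, and the mesothelial and smooth muscle sums higher. The stellate cell and fibroblast sums overlapped, with 3 of 8 tested members lower and 1 higher. The part of any of these cell types in the change of Lpl was not tested.

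Apoe, at chr7:19696109-19699188, was at 313, 323, 330.3 and 266 in WT 1 to 4 and at 903, 113, 824 and 490.3 in LRP1 eKO 1 to 4. LRP1 eKO 2 was the lowest of all 8 libraries and the other LRP1 eKO libraries were the highest. The log2 fold change was 0.55 (SE 0.54, 95% interval -0.66 to 1.77) and did not pass (limma adjusted p = 0.44). Without LRP1 eKO 2 it was 1.22 (limma adjusted p = 0.0012), and without WT 4 as well it was 1.15 (limma adjusted p = 0.0018), so that 1 library decided the call.

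The order of the 8 libraries by Apoe was the order by the summed macrophage and Kupffer cell list. That sum was 190.4, 208, 224 and 114 in WT 1 to 4 and 740.0, 53.1, 676 and 397 in LRP1 eKO 1 to 4, and 31 of 11381 genes outside the list (0.272%) had the same order of libraries. Lyz2, the lysozyme gene of macrophages, led the list at 114 in WT and 233 in LRP1 eKO. All 10 tested members had a higher mean log2 signal in LRP1 eKO, as had 5516 of the 11391 genes tested. Of the 10, 1 was called higher by limma, beside 19.0% of all genes tested. Of the list's Kupffer cell genes, Clec4f was listed at 0 in the 4 WT libraries and reached 0.124 to 0.826 in LRP1 eKO. Timd4 was listed at 0 in every library but LRP1 eKO 3, at 0.0237. Vsig4, Cd5l and Marco were above 0 in all 8 libraries, lowest in LRP1 eKO 2 and highest in the other LRP1 eKO libraries. Cd5l was at 2.05 to 4.08 in WT and at 20.8, 0.274, 18.0 and 9.99 in LRP1 eKO 1 to 4. With the log2 sum of the list as a covariate, an alternative chosen after seeing the data, the log2 fold change of Apoe was -0.08 (limma adjusted p = 0.52). No LRP1 eKO sum lay within the range of the WT sums, so this fit did not compare the genotypes at like sums. The part of macrophage RNA in the change of Apoe was not tested. The 3 genes whose pattern over the 8 libraries was most like that of Apoe were Pla2g7, Fcgr3 and Lyz1, with root mean square differences of 0.101, 0.111 and 0.129 on the log2 scale after centring, against a median of 0.916 over 11390 genes.

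**Figure D4:**
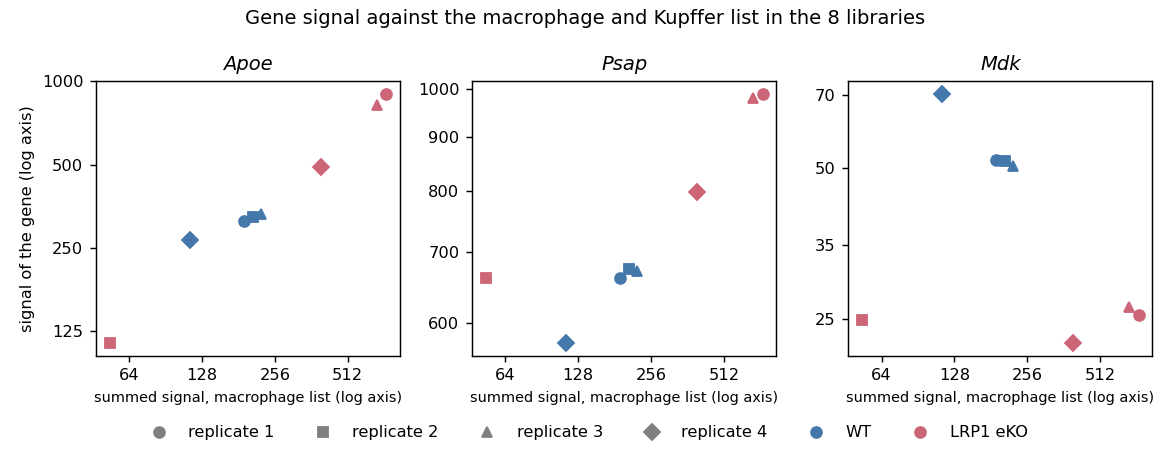
Signal of Apoe, Psap and Mdk against the summed signal of the macrophage and Kupffer cell list in the 8 libraries, with both axes on a log scale, WT in blue and LRP1 eKO in red. Apoe rises with the list across all 8 libraries. Psap is highest where the list is highest, but LRP1 eKO 2, lowest in the list, equals WT 1 in Psap, and WT 4 is lowest. Mdk is lower in every LRP1 eKO library. The LRP1 eKO list sums lie below (53.1) or above (397 to 740) the WT sums of 114 to 224, so the genotypes are not compared at like sums.

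Of 12 genes that mature, anchor or regulate lipoprotein lipase, 5 were tested, with 1 higher and 1 lower, a share near the 41.2% of all genes tested. Apoc2, the activator of the enzyme, was lower past 2-fold at 5.06 ± 2.45 against 13.4 ± 2.42 (SD, n = 4 each). In log2 units its difference was -1.35 with a limma adjusted p of 0.0048. Sel1l, which helps the enzyme out of the ER, was higher at 43.5 against 31.0 (limma adjusted p = 0.016). Gpihbp1, the protein that holds the enzyme on capillary endothelium, was near the filter limit at 1.01 against 1.12. Among 10 genes of apolipoprotein E and cholesterol efflux, 8 were tested, with 2 higher and 1 lower, or 37.5% called, also near that background. Pltp, a phospholipid transfer protein, rose by 0.41 (log2, limma adjusted p = 0.001). Abca1, the lipid exporter that loads apolipoproteins, rose by 0.28 (log2, limma adjusted p = 0.020), and Apoc2 was the lower gene.

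Thrombospondins are matrix glycoproteins that LRP1 takes up together with the proteins they bind. Thbs1, at chr2:118111876-118127133, was at 682, 711, 661 and 445 in WT 1 to 4 and at 466, 377, 507 and 419 in LRP1 eKO 1 to 4. WT 4 lay within the LRP1 eKO range and the other 3 WT libraries above it. The means were 625 ± 122 and 442 ± 56.5 (SD, n = 4 each), a fall of 0.48 on the log2 scale (SE 0.15, limma adjusted p = 0.025). The exact two-sided permutation test of Thbs1 gave p = 0.086. The limma call was lost without WT 1 (adjusted p = 0.065), WT 2 (0.063), WT 3 (0.061), LRP1 eKO 2 (0.059) or LRP1 eKO 4 (0.064), and without WT 4 and LRP1 eKO 2 together the log2 fold change was -0.56 (limma adjusted p = 2.8e-04).

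Thbs2, at chr17:14665500-14694235, was far lower than its relative, at 6.37 to 7.51 in WT and 6.98 to 7.72 in LRP1 eKO. The groups overlapped, with a log2 fold change of 0.07 (95% interval -0.07 to 0.20, limma adjusted p = 0.38). Of 12 other thrombospondins, receptors and partners, 10 were tested, with 2 higher and 1 lower, fewer than the 41.2% called over all genes tested. Cd47, a membrane receptor of thrombospondin-1 and the signal that keeps phagocytes away, was higher in every LRP1 eKO library at 78.5 ± 1.77 against 59.2 ± 2.51 (SD, n = 4 each; log2 fold change 0.40, limma adjusted p = 9.7e-05). Itgb1, the integrin beta chain, was higher at 395 against 339 (limma adjusted p = 0.041), and Thbs3 was lower at 1.29 against 2.41 (limma adjusted p = 0.036). The genes most like Thbs1 over the libraries were Col8a1, Pde4b and Arsb, with root mean square differences of 0.0741 to 0.0912 against a median of 0.352.

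Mdk, at chr2:91929805-91932297, encodes midkine, a heparin-binding growth factor that signals through LRP1 among other receptors. It was at 51.9, 51.6, 50.4 and 70.4 in WT 1 to 4 and at 25.4, 24.9, 26.3 and 22.3 in LRP1 eKO 1 to 4. The lowest WT library was above the highest LRP1 eKO library, and WT 4 was the highest of all. The means were 56.1 ± 9.57 and 24.7 ± 1.72 (SD, n = 4 each). Mdk fell by 1.14 on the log2 scale (SE 0.10, 95% interval -1.37 to -0.91, limma adjusted p = 2.9e-05). It passed the limma test in all 19 other fits with a log2 fold change of -1.19 to -1.03.

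The skeletal muscle list showed the same 2 features as Mdk, with 33.9 to 56.9 in WT, WT 4 highest, and 6.15 to 7.66 in LRP1 eKO. Of its tested members, 5 of 5 were lower, beside 22.2% of all genes tested. Each feature was common. WT 4 was farthest from its group, in either direction, in 61.7% of genes tested, and LRP1 eKO lay wholly below WT in 22.5%. The share of genes with both features was not computed. The gene most like Mdk over the libraries was Tnnc1, a troponin gene of slow and cardiac muscle, followed by Cenpm and Lgals2, with root mean square differences of 0.0568 to 0.0944 against a median of 0.591. The part of muscle RNA in the change of Mdk was not tested. Of 11 midkine relatives and receptors, 6 were tested, with 3 higher and 1 lower, beside 19.0% higher and 22.2% lower of all genes tested. The heparan sulfate carrier Sdc3 was higher past 2-fold, at 11.4 ± 3.59 against 4.52 ± 0.298 (SD, n = 4 each; log2 fold change 1.12, limma adjusted p = 0.0011), and Sdc2 was higher at 75.2 against 49.5 (limma adjusted p = 7.5e-05). Ncl, a nucleolar protein that also binds midkine, rose by 0.15 (log2, limma adjusted p = 0.029), while Gpc2 was the lower gene at 2.64 against 3.64 (limma adjusted p = 0.020). Alk, Ltk, Ptprz1, Ptn and Cspg5 were below the filter.

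App, at chr16:84949685-85173766, encodes the amyloid precursor protein, whose long forms LRP1 internalizes. It was at 447, 457, 456 and 345 in WT 1 to 4 and at 484, 438, 496 and 474 in LRP1 eKO 1 to 4. WT 4 was lowest and the groups overlapped through LRP1 eKO 2. The log2 fold change was 0.16 (95% interval -0.04 to 0.36) and did not pass (limma adjusted p = 0.18), while without WT 4 and LRP1 eKO 2 it was 0.10 (limma adjusted p = 0.042). Of 14 genes of APP relatives, adaptors and secretases, 13 were tested, with 3 higher and 3 lower, a share called of 46.2%, near the 41.2% of all genes tested. Within the gamma-secretase complex, which also cuts LRP1, Psen2 fell by 0.38 (limma adjusted p = 8.1e-04), Aph1a by 0.21 (limma adjusted p = 0.0081) and Psenen by 0.21 (limma adjusted p = 0.026) on the log2 scale. Aph1b, the alternative to Aph1a, rose by 0.21 (limma adjusted p = 0.047), and Apbb2, an adaptor of APP, rose by 0.28 (limma adjusted p = 0.028).

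Psap, at chr10:60277627-60302597, encodes prosaposin, the precursor of the saposins that help lysosomal enzymes to reach sphingolipids. It was at 663, 675, 673 and 574 in WT 1 to 4 and at 989, 663, 980 and 798 in LRP1 eKO 1 to 4. LRP1 eKO 2 equalled WT 1 and the other LRP1 eKO libraries were above all WT libraries. The means were 646 ± 48.2 and 858 ± 157 (SD, n = 4 each), a rise of 0.39 on the log2 scale (SE 0.12, limma adjusted p = 0.027). The exact two-sided permutation test of Psap gave p = 0.11. The limma call was lost without WT 4 (adjusted p = 0.064), LRP1 eKO 1 (0.070) or LRP1 eKO 3 (0.073). The Spearman correlation of Psap with the macrophage list over the 8 libraries was 0.93, given as a description. With the list as a covariate, chosen after seeing the data, the log2 fold change was 0.26 (limma adjusted p = 0.0055). That fit did not compare the genotypes at like list sums, and the part of macrophage RNA in the change of Psap was not tested.

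Of 14 genes of saposin-dependent enzymes and of prosaposin sorting and receptors, 12 were tested, with 6 higher and 1 lower, or 58.3% called beside 41.2% of all genes tested. Grn, the progranulin gene whose product travels with prosaposin, was higher in every LRP1 eKO library at 243 ± 12.3 against 159 ± 7.42 (SD, n = 4 each; log2 fold change 0.61, limma adjusted p = 1.9e-05). Asah1, acid ceramidase, rose by 0.66 (log2, limma adjusted p = 4.6e-04). Gla, Igf2r and Gm2a were also higher, and Sort1, a sorting receptor, was the lower gene.

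Calr, at chr8:84841850-84846934, encodes calreticulin, an ER lectin chaperone that also acts at the cell surface with LRP1 as an uptake signal on dying cells. It was at 661, 697, 697 and 673 in WT 1 to 4 and at 809.7, 844, 809.7 and 818 in LRP1 eKO 1 to 4. All LRP1 eKO libraries were above all WT libraries, and the spread within each group was small, with means of 820 ± 16.4 and 682 ± 18.0 (SD, n = 4 each). Calr rose by 0.27 on the log2 scale (SE 0.039, limma adjusted p = 6.0e-04), a ratio of 1.20. The exact two-sided permutation test of Calr gave p = 0.029. It passed the limma test in all 19 other fits, with a log2 fold change of 0.25 to 0.28.

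All 10 partner genes of calreticulin were tested, 6 were higher and 0 lower, with a median log2 fold change of 0.26, where 19.0% of all genes tested were higher and 22.2% lower. The higher genes included P4hb, protein disulfide isomerase, at 676 ± 8.88 against 551 ± 11.8, and Canx, the membrane-bound relative of calreticulin, at 239.9 ± 11.9 against 187 ± 12.6 (SD, n = 4 each). Their log2 fold changes were 0.29 (limma adjusted p = 2.4e-04) and 0.36 (limma adjusted p = 0.0012). Hspa5, the ER chaperone BiP, rose by 0.29 (limma adjusted p = 0.0013), Hsp90b1 by 0.22 (limma adjusted p = 0.0096) and Pdia3 by 0.14 (limma adjusted p = 0.036) on the log2 scale. Cd47, a partner of calreticulin in the control of uptake, was the other higher gene. Calr, Hspa5, Hsp90b1 and Canx are the 4 genes whose ERSE is printed above, and of the 15 tested genes with an ERSE in a RefSeq promoter 6 were higher and 1 lower, with a median of 0.14. That is 46.7% called, near the 41.2% of all genes tested, of which 19.0% were higher and 22.2% lower. The 6 higher genes include Calr, Hspa5, Hsp90b1 and Canx, whose values were seen before the search. The others are Creld2 and Syvn1. At 2-fold, 0 of these ER genes passed.

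Other LRP1 ligands and the receptor family give the setting of the 9 genes. Of 35 further ligand genes, 25 were tested, 12 were higher and 7 lower, with a median log2 fold change of 0.26. Those called were 76.0% of the tested ligands, beside 41.2% of all genes tested, of which 19.0% were higher and 22.2% lower. Adamts5, a matrix protease that LRP1 clears, was higher past 2-fold at 13.7 ± 0.564 against 6.22 ± 1.23 (SD, n = 4 each; log2 fold change 1.05, limma adjusted p = 1.1e-04). Ccn2, a matricellular growth factor, rose by 0.78 on the log2 scale (limma adjusted p = 2.7e-06). Hpx, the haem carrier hemopexin made by hepatocytes, was lower past 2-fold at 1.83 ± 0.204 against 5.29 ± 0.362 (SD, n = 4 each; log2 fold change -1.15, limma adjusted p = 3.0e-06), as the hepatocyte list was.

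Among 14 LDL receptor family genes, 11 were tested, with 4 higher and Lrp1 as the 1 lower gene. With the deleted gene included, 45.5% were called, near the 41.2% of all genes tested. Vldlr, a receptor that shares RAP and apolipoprotein E with LRP1, was higher in every LRP1 eKO library at 15.4 ± 1.70 against 9.13 ± 0.675 (SD, n = 4 each; log2 fold change 0.69, limma adjusted p = 1.6e-04). Lrp8, an apolipoprotein E receptor, rose by 0.41 (log2, limma adjusted p = 0.031), and Lrp12 was higher at 5.39 against 3.95 (limma adjusted p = 0.047). Over the partner genes of the 9, each counted once, 60 of 79 were tested, 22 were higher and 7 lower, with a median of 0.13. The share called was 48.3%, beside 41.2% of all genes tested (19.0% higher, 22.2% lower).

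**Figure D5:**
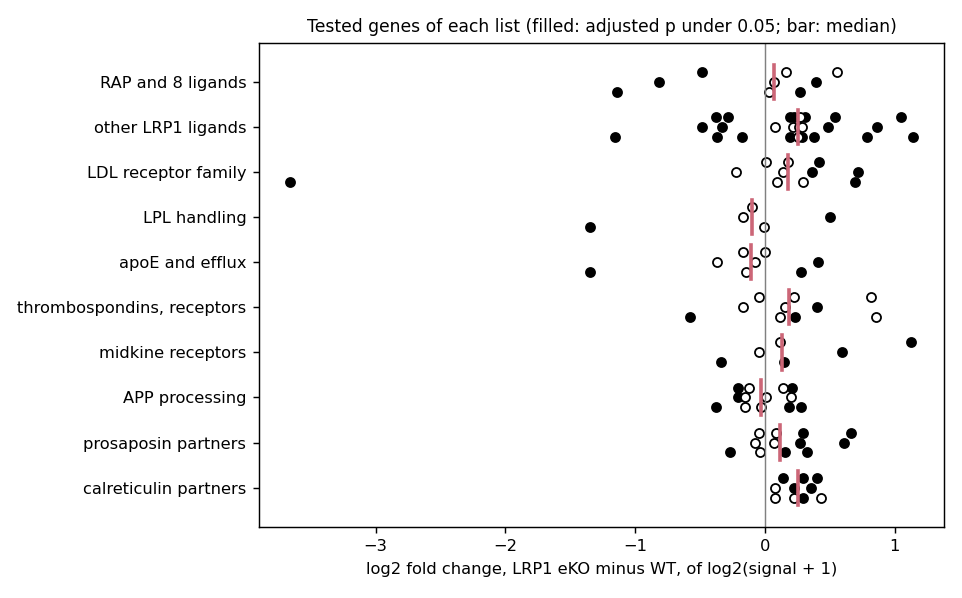
Log2 fold change (LRP1 eKO minus WT) of every tested gene in the list of 9, the other LRP1 ligands, the LDL receptor family and the partner lists, filled where the limma adjusted p was under 0.05, with a bar at the median of each list. Lrp1 is the point at -3.66, and all 10 points of the calreticulin partners lie above 0, of which 6 are filled.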

How the data were processed

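The 4 WT and 4 LRP1 eKO liver libraries were grouped by the sample labels. The deposited table holds 1 column per library of signal that the authors had quantile-normalized. The unit before that step is not stated, the depth is unknown and no counting interval was computed. The submitters' processing notes list TopHat2 and Cufflinks on mm10, whereas the paper's methods name other tools, and neither describes the table.

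From the deposited signal, log2(signal + 1) was fitted by genotype in limma 3.58.1 (R 4.3.3) with a mean-variance trend. The 11391 genes that reached a signal of 1 in 4 or more libraries entered the fit. Because the values are not counts, the count test of the methods was not used. The threshold was p under 0.05 after Benjamini-Hochberg adjustment. A named gene that missed the filter came from a fit with no filter. Exact two-sided permutation tests of the mean log2 signal cannot give p below 0.029 with 4 libraries against 4. The calculation was tested on simulated data. The genes and lists were chosen with earlier results of these data known.

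The text names each of the 9 genes, genes of other lists past both thresholds or among the 3 smallest adjusted p, the leading marker of a list, markers at 0, and the 3 genes most like each of the 4 genes with the widest range over the libraries. Some genes that this rule names are not reported here, and genes named otherwise were chosen after their values were seen. Ccn2 was found under its older symbol, and of 2 rows for Cd47 the higher was used. Positions came from GENCODE M21 (mm10) and promoters from RefSeq, which gave none here for Lpl, Thbs1 and Mdk. Planned protein comparisons were not run. Deviations of libraries with the same replicate number correlated at -0.13 to 0.18 over 4 pairs. So few libraries, of which WT 4 and LRP1 eKO 2 stood apart, cannot show whether they were paired. The alternatives changed the pseudocount (0.1 or 5), the filter (none or a mean of 5), the trend, the moderation (robust), the library weights and the scaling (libraries centred after removing 30% of genes at either end), or added a replicate block, a ratio of arithmetic means, other thresholds, libraries left out, and, chosen after seeing the data, the macrophage list as a covariate. Python 3.11.15 and matplotlib 3.10.9 served for the figures.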

Additional observations from a re-analysis of the deposited data

Results flagged for a closer look

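A value was singled out where the highest or lowest of the 4 libraries of a group lay apart from the other 3, with a gap to its nearest neighbour, as a share of the whole range of the group, above Dixon's 95% limit. The share is given in brackets. Of 140 groups examined, 15 did so, where chance gives about 1 in 20, or 7, if the groups are independent. They were not, since they share the same libraries and the summed lists include genes examined singly. WT 4 accounted for most of the 15. It was lowest of the WT libraries for App (0.907), Psap (0.879) and Sel1l (0.831). It was highest for Mdk (0.921), Psenen (0.833), the hepatocyte gene Trf (0.877) and the muscle genes Myl1 (0.916) and Tnnt3 (0.867). The summed skeletal muscle list (0.854) and the summed hepatocyte list (0.886), most of which was Trf, were also highest in WT 4. Other hepatocyte genes mostly went the other way. Alb, Apoa1, Serpina1a, Fgb, Fga, Cyp3a11, Cps1 and Ahsg were lowest in WT 4 of the WT libraries, Ttr was highest, and Apob and Apoh lay between.

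LRP1 eKO 2 was lowest of the LRP1 eKO libraries for Lrpap1 (0.85) and highest for Cd47 (0.83). The remaining values were those of Fga, highest in LRP1 eKO 1 (0.891), Stab1, highest in WT 3 (0.839), and Cd79a, lowest in WT 1 (0.884).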

How the results depend on the processing

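The calls of Lpl, Calr and Mdk held in all 19 refits. Thbs1 at -0.48 and Psap at 0.39 were lost with no filter (limma adjusted p = 0.059 and 0.062), which left 1 higher gene of the 9, and the LDL receptor family then gave 2 higher and 2 lower genes. A minimum mean signal of 5 left 2 higher in that family, with fewer genes tested, and array weights gave 11 lower partner genes. Without WT 4 and LRP1 eKO 2, Apoe at 1.15 and App at 0.096 passed, and 4 of the 9 genes were higher. With the macrophage list as a covariate, chosen after seeing the data, Apoe turned to -0.083 (limma adjusted p = 0.52).

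Requiring 2-fold left Mdk, so that 0 of the 9 were higher and 1 lower, and Lpl (-0.82), Thbs1 (-0.48), Psap (0.39) and Calr (0.27) no longer passed. It left 2 higher and 1 lower of the other ligands, 0 higher in the receptor family, 1 higher and 1 lower partner gene, and 99 higher and 90 lower of all genes. At an adjusted p under 0.01, Thbs1 (-0.48) and Psap (0.39) did not pass, 1 of the 9 was higher, 2 of the receptor family were higher, 12 partner genes were higher and 3 lower, and 1201 of all genes were higher and 1536 lower.

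Leaving out each library in turn gave log2 fold changes of 0.22 to 1.22 for Apoe, -0.64 to -0.41 for Thbs1 and 0.32 to 0.51 for Psap. It gave 1 to 3 higher and 2 to 3 lower of the 9, 2 to 4 higher in the receptor family, and 13 to 21 higher and 4 to 9 lower partner genes. Of the 9, 1 was higher without WT 4, LRP1 eKO 1 or LRP1 eKO 3, and 2 of the receptor family were higher without WT 1 or LRP1 eKO 4. The partner genes gave 13 higher without LRP1 eKO 3 and 4 lower without LRP1 eKO 1, 3 or 4.

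The libraries shared replicate numbers but 0 of 4 WT libraries correlated best with its own number. With the replicate number as a block, Lpl was at -0.82 (limma adjusted p = 0.0013) and no call among the 9 changed. The block gave 1975 higher and 2210 lower of all genes. Of 189 fold changes of the 9 genes over refits and thresholds, 169 kept their direction and their side of the threshold. Where only the threshold changed, the fold changes were those of the main fit and could not change direction. The unknown depth, the quantile normalization, which removes a global shift, and the low endothelial markers limit what these 8 libraries can show. The causes of the changes between settings were not tested.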

Other observations

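The genes most like Lpl over the 8 libraries were Gas1, Emb and Slc16a4, with root mean square differences of 0.0502, 0.0887 and 0.0949 on the log2 scale, against a median of 0.458 over 11390 genes. Within each genotype, Lpl ranked its 4 libraries as the macrophage list did, although the genotypes were separate for Lpl and overlapped for the list. Calr had the reverse tendency in LRP1 eKO, where LRP1 eKO 2 was highest at 844 and lowest in the list at 53.1. These are descriptions of 8 libraries and were not tested.

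The smaller marker lists were as follows. Liver sinusoidal endothelial genes led by Stab1 summed to 7.57 to 9.84 in WT and 8.61 to 24.3 in LRP1 eKO, and cholangiocyte genes led by Krt7 to 163 to 178 and 139 to 149. Erythroid genes led by Alas2 summed to 24.7 to 35.2 and 14.6 to 24.7. Platelet and megakaryocyte genes led by Pf4 summed to 4.31 to 4.80 and 3.48 to 12.0, with Ppbp and Gp9 listed at 0 in all libraries. Neutrophil genes led by S100a8 stayed under 3.59, adipocyte genes led by Adipoq under 0.145 and lymphocyte genes led by Cd79a under 0.191, with Cd3g and Cd8a listed at 0.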
